A study of Mus musculus with 17 samples.

Results

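The S100 genes encode small calcium-binding proteins, and 9 of them (S100a1, S100a4, S100a6, S100a8, S100a9, S100a10, S100a11, S100a13 and S100a16) were followed here by their gene symbols among the 31647 features of a heart count table. All 9 had a row of their own, and all 9 were among the 12301 genes that passed the filter on low counts. Transcripts were counted by massive analysis of cDNA ends (MACE), a 3' sequencing method that yields 1 tag per polyadenylated transcript, with molecular identifiers to remove PCR duplicates. The tissue came from male wild-type C57BL/6 J mice aged 8 to 11 weeks, examined 5 days after surgery, with 1 mouse per library. In 9 mice the left anterior descending coronary artery (LAD) had been ligated permanently to cause a myocardial infarction (MI), and RNA was taken from the infarct zone (IZ). The other 8 mice had sham surgery without ligation, and RNA was taken from the left ventricle, so the groups differ in both the surgery and the sampled region.

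S100 proteins carry a pair of EF-hands, helix-loop-helix motifs that bind calcium, and mostly act as dimers that dock onto target proteins when calcium rises. Some members have known partners inside the cell. There S100A1, the cardiomyocyte member, binds the calcium pump SERCA2a and the ryanodine receptor, and S100A4, S100A6, S100A10 and S100A11 bind myosin, annexins and other proteins of the cell cortex. S100A8 and S100A9 form calprotectin, which neutrophils and monocytes hold in large amounts and release as a danger signal read by Toll-like receptor 4 and by RAGE, the product of Ager.

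The libraries held between 1237675 and 4738307 counts. Values are given as CPM, counts scaled to a common TMM-adjusted library size, where TMM is the trimmed mean of M values. Cardiomyocyte markers were found in sham, where the 7 listed genes summed to 74180 to 100380 CPM, and were lower in the IZ, at 2963 to 33778 CPM. IZ replicate 1 held that highest value, against 2963 to 7627 CPM in the other IZ libraries, and 19.5% of its counts came from mitochondrially encoded features, against 4.22 to 6.78% in the others and 22.9 to 32.4% in sham. Because this library stood apart, several results are given with and without it, and others with all libraries only.

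In the IZ, 8 of the 9 S100 genes were upregulated and 1, S100a1, was downregulated (edgeR quasi-likelihood F-test, Benjamini-Hochberg adjustment over all genes, threshold 0.05). The background was high: of all 12301 genes tested, 36.3% were called higher and 33.1% lower, 69.5% in either direction. The median log2 fold change of the 9 genes was 2.47, beside 0.05 over all genes tested. Scaling by total counts alone in place of TMM moved the median of all genes to 1.13, and relative to that median the members kept their directions, from -2.35 for S100a1 and 0.42 for S100a16 to 3.40 for S100a4. S100a8 and S100a9 passed the filter only through the IZ libraries. The filter thus favoured a higher call for them, which bears on the counts and the median given here. Changes of at least 2-fold were called in 6 genes upward (S100a4, S100a6, S100a8, S100a9, S100a10 and S100a11), where 19.3% of all genes were, and in S100a1 downward, where 18.3% were. S100a4, S100a6, S100a10 and S100a11 were higher in all 9 IZ libraries than in any sham library, a pattern held by 16.6% of all genes, and S100a1 was lower in all 9, a pattern held by 16.5%. RNA from whole tissue cannot tell a change in the number of cells of a type from a change in the RNA of each cell.

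**Figure D1:**
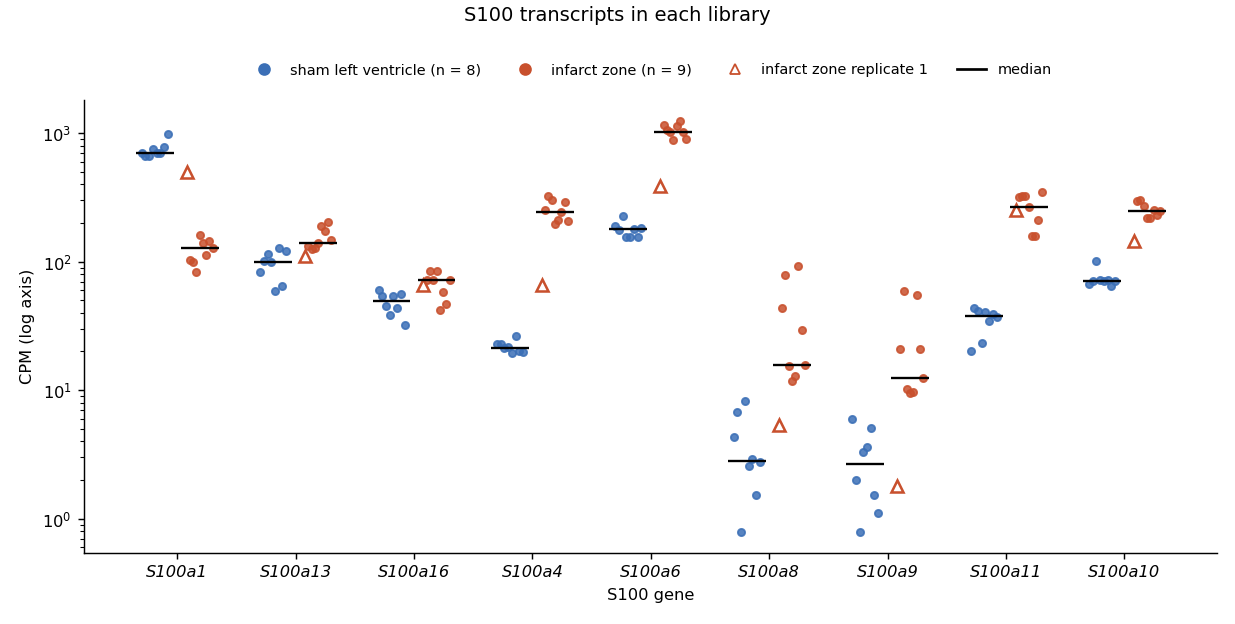
Level of each of the 9 S100 genes in each library, in CPM on a log axis, with 8 sham libraries in blue and 9 IZ libraries in red. The bar is the group median and the open triangle is IZ replicate 1. The red points lie below every blue point for S100a1 and above every blue point for S100a4, S100a6, S100a11 and S100a10.

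The members lie on chromosome 3 in a pair of clusters (mm10, GENCODE M21 annotation). The first runs over 184.687 kb from S100a1 (chr3:90511034-90514392, minus strand) through S100a13 (chr3:90514435-90524581, plus), S100a16 (chr3:90537254-90543151, plus), S100a4 (chr3:90603771-90606045, plus), S100a6 (chr3:90612882-90624181, plus) and S100a8 (chr3:90668978-90670035, plus) to S100a9 (chr3:90692632-90695721, minus). The second begins 2.82 Mb further on with S100a11 (chr3:93520488-93526287, plus), followed after 28.8 kb by S100a10 (chr3:93555080-93564643, plus). S100a1 and S100a13 are transcribed away from each other from annotated starts 43 bases apart, and they moved in opposite directions, with log2 fold changes of -2.19 and 0.64.

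Promoter windows of 300 bases (250 before and 50 after the transcription start, RefSeq, GRCm38.p6) were found for 8 of the 9 members. The stretch between the RefSeq starts of S100a1 and S100a13 is shown because 1 of this pair was downregulated and the other upregulated. The 3 stretches upstream of S100a4, S100a8 and S100a9 are shown because these genes had 3 of the 4 highest fold changes, and S100a11 because it held the fourth. They read 5' to 3' on the strand of the named gene and end at the base before its RefSeq start: S100a1 chr3:90514331-90514434 (minus), S100a4 chr3:90603650-90603769 (plus), S100a8 chr3:90668951-90669070 (plus), S100a9 chr3:90695722-90695841 (minus) and S100a11 chr3:93520296-93520495 (plus). Capitals mark the letters TATAAA or TGACTCA on either strand.
S100a1: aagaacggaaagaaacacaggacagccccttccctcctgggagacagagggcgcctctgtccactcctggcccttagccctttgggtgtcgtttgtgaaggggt
S100a4: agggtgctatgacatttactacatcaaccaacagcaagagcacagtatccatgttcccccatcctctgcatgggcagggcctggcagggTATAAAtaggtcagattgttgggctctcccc
S100a8: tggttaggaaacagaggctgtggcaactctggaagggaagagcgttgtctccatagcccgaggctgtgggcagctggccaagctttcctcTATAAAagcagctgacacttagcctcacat
S100a9: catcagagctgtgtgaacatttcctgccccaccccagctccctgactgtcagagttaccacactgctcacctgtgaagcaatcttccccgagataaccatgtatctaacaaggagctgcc
S100a11: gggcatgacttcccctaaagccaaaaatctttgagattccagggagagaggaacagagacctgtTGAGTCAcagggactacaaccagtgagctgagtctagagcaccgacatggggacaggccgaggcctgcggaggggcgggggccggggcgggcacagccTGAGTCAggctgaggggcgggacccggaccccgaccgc

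A set of 4 motifs, chosen with results and sequences in view, was searched in the 300-base windows on both strands: TATAAA for the box of that name, TGACTCA for the factor AP-1, TTGCNNAA for C/EBP factors, and CCAAT, named by its letters. No matches of different motifs overlapped in a member. Of all 32851 promoter windows in the table, 13.6% held TATAAA, 5.2% TGACTCA, 10.8% TTGCNNAA and 37.4% CCAAT. In S100a4 the letters TATAAA began 31 bases before the start and in S100a8 30 bases before it, and in S100a9 they began at the start itself, outside the stretch shown. TGACTCA was found in S100a11 at 136 and 38 bases before the start, on the minus strand both times. S100a9 held TTGCNNAA at 236 bases before the start and S100a6 held CCAAT at 228 bases. None of the 4 motifs was found in the windows of S100a1, S100a13 and S100a16.

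S100a1, the cardiomyocyte member, was the most abundant of the 9 in sham and was downregulated in the IZ. Its level ran from 660 to 981 CPM in sham, with a median of 702, and from 82.6 to 495 CPM in the IZ, with a median of 128. All IZ libraries lay below all sham libraries, and the IZ high of 495 CPM was replicate 1, with the others at or below 162. The means were 743 ± 105 CPM (SD, n = 8) and 163 ± 127 CPM (SD, n = 9), a log2 fold change of -2.19 ± 0.28 (SE, edgeR adjusted p = 2.51e-07). Without IZ replicate 1 the mean of the IZ was 122 ± 26.7 CPM (SD, n = 8) and the log2 fold change -2.65 ± 0.13 (SE).

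The listed cardiac targets of S100A1 were all downregulated, as were all 7 listed cardiomyocyte markers. The markers had a median log2 fold change of -3.76, or -4.80 without IZ replicate 1, so the fall is not particular to the targets. Of 5 genes tested, 5 were called lower (33.1% of all genes) and lay below every sham library in all 9 IZ libraries (16.5% of all genes), with a median log2 fold change of -3.01, or -3.70 without IZ replicate 1, beside 0.05 over all genes. Atp2a2, which encodes SERCA2a, changed most, from 9084 CPM in sham to 618 CPM in the IZ (log2 fold change -3.88 ± 0.40, SE, and 388 CPM and -4.59 without IZ replicate 1), and Atp5a1, a subunit of the mitochondrial ATP synthase, changed least (-2.86 ± 0.26). Ryr2, the ryanodine receptor, had a log2 fold change of -2.97, Pln, phospholamban, of -3.57 and Ttn, titin, of -3.01.

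S100a1 was set against the summed counts of the 7 cardiomyocyte markers (Myh6, Myl2, Myl3, Tnnt2, Tnni3, Actc1 and Mb) within each library, so that no scaling enters. The log2 ratio was -6.89 ± 0.14 (SD, n = 8) in sham and -5.42 ± 0.36 (SD, n = 9) in the IZ. It was higher in all 9 IZ libraries than in any sham library, so relative to this sum S100a1 was 2.78-fold higher. That does not hold for each marker: S100a1 (log2 fold change -2.19) fell about as much as Tnnt2 (-2.20) and Actc1 (-2.12). The sum is weighted to the most abundant markers in sham, Mb, Myl2, Myh6 and Tnni3, with log2 fold changes of -3.76, -3.97, -3.89 and -4.19. The exact two-sided permutation test over 24310 splits gave p = 4.11e-05, the smallest it can give (adjusted over 4 ratios, 8.23e-05). IZ replicate 1 had the lowest IZ ratio, -6.09, and leaving out each library in turn or changing the setting kept the difference between 1.42 and 1.56. Within the marker list log2 fold changes ran from -4.19 for Tnni3, cardiac troponin I, to -2.12 for Actc1, cardiac actin, or from -5.00 to -2.62 without IZ replicate 1, with a median of -3.76, or -4.80 without it.

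Across IZ libraries S100a1 and the summed cardiomyocyte markers moved together, with Pearson r = 0.976 (n = 9, exact permutation p = 0.000314, adjusted over 10 relations 0.00105) and Spearman rho = 0.90 (p = 0.00203, adjusted 0.00676). Without IZ replicate 1, r was 0.881 (n = 8, exact permutation, adjusted p = 0.0190). Without the pair of libraries farthest from the median of S100a1, replicates 1 and 4, r was 0.827 (n = 7, exact permutation, p = 0.0325, adjusted 0.108), so with 7 libraries the relation was no longer called. In sham r was 0.658 and rho 0.69 (n = 8, exact permutation, p = 0.0680 and 0.0694, adjusted 0.113 and 0.173).

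S100a8 and S100a9, the calprotectin subunits, were low in sham and varied most among the IZ libraries. S100a8 ran from 0.784 to 8.28 CPM in sham, with a median of 2.83, and from 5.38 to 92.4 CPM in the IZ, with a median of 15.7. The highest IZ values were those of replicates 7 and 3, at 92.4 and 78.4 CPM, and the lowest that of replicate 1, the only IZ library within the sham range. These values rest on few counts, from 1 to 15 for sham and from 15 to 480 for the IZ. Both calprotectin genes passed the filter only through the IZ, which favoured a higher call. The log2 fold change was 3.19 ± 0.57 (SE, edgeR adjusted p = 2.77e-05), with means of 3.74 ± 2.58 CPM (SD, n = 8) and 33.9 ± 31.5 CPM (SD, n = 9).

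S100a9 ran from 0.784 to 5.96 CPM in sham, with a median of 2.67, and from 1.79 to 59.6 CPM in the IZ, with a median of 12.4. Replicates 3 and 7 again held the highest values, 59.6 and 54.8 CPM, and replicate 1 the lowest, inside the sham range. Sham libraries had 1 to 11 counts and IZ libraries 5 to 365, and the log2 fold change was 2.93 ± 0.58 (SE, edgeR adjusted p = 9.46e-05). The coefficient of variation in the IZ was 93.0% for S100a8 and 93.2% for S100a9, beside 77.7% for S100a1, where IZ replicate 1 lies apart, and 19.5 to 33.0% for the other members. These 2 genes also varied most in sham, on few counts, at 69.1% and 64.9%, beside 10.1 to 26.6% for the other members.

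The calprotectin genes varied together among the IZ libraries. S100a8 and S100a9 had r = 0.967 and rho = 0.983 (n = 9, exact permutation, adjusted p = 0.000179 and 0.000496), and r = 0.979 (n = 8, exact permutation, adjusted p = 0.00161) without replicate 1. Without replicates 3 and 7, r was 0.929 (n = 7, exact permutation, adjusted p = 0.00198). S100a8 also followed the summed neutrophil markers, with r = 0.952 and rho = 0.933 (n = 9, exact permutation, adjusted p = 0.000165 and 0.00375), r = 0.962 without replicate 1 (n = 8, exact permutation, adjusted p = 0.00149) and r = 0.891 without replicates 3 and 7 (n = 7, exact permutation, adjusted p = 0.00595). Without replicates 3 and 7 the rank relation was no longer called, at rho = 0.857 (n = 7, exact permutation, adjusted p = 0.119). In the IZ that sum rested mostly on Csf3r, Mmp9, Mmp8 and Il1r2. The relations of S100a8 with S100a9 and with the neutrophil markers were not computed in sham, where the median S100a8 count was under 10.

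**Figure D2:**
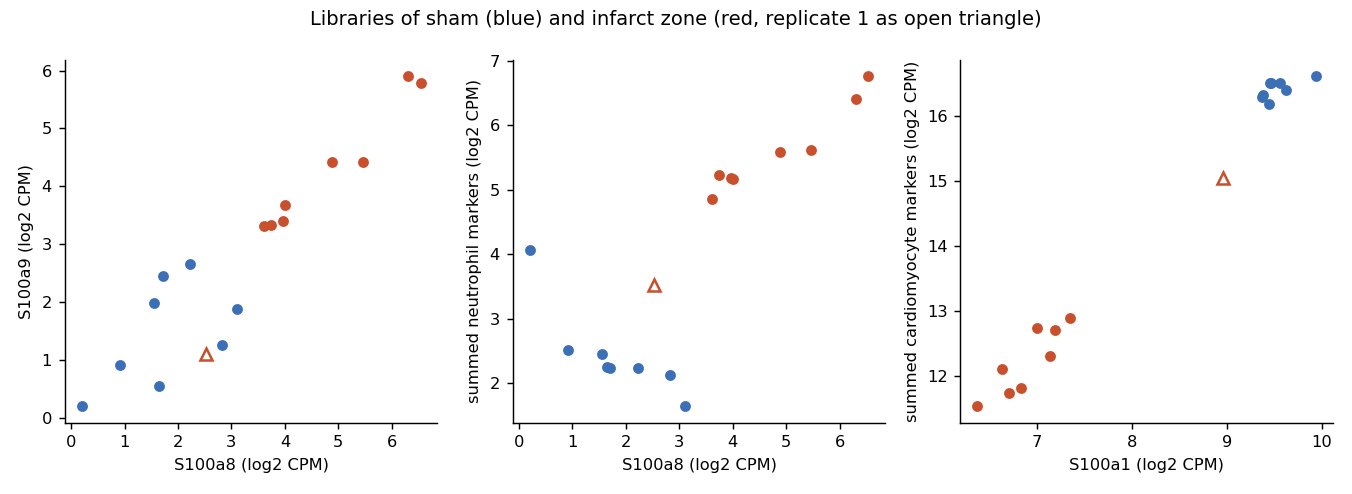
Log2 CPM of S100a8 against S100a9 (left), S100a8 against the summed neutrophil markers (middle) and S100a1 against the summed cardiomyocyte markers (right), one point per library, sham in blue and IZ in red. In the IZ r was 0.967, 0.952 and 0.976, and the open triangle, IZ replicate 1, lies nearest to the sham libraries.

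The neutrophil markers themselves were few. Their summed level was 2.76 to 16.5 CPM in sham and 11.1 to 109 CPM in the IZ. Of 13 markers with a row, 2 passed the filter, both only through the IZ libraries, since they had 3 counts or fewer in each sham library, so the direction of their calls was fixed by the filter. They were Csf3r, the receptor for granulocyte colony-stimulating factor (0.534 CPM on average in sham and 19.9 CPM in the IZ), and Mmp8, neutrophil collagenase (0.164 and 7.94 CPM). Mmp8 did not pass the filter when any 1 of IZ replicates 2 to 9 was left out. Beside these, the IZ sum was carried mostly by Mmp9 (0.775 CPM on average in sham and 10.2 CPM in the IZ) and Il1r2 (0.224 and 5.87 CPM). Lcn2 went the other way, with 3.13 and 2.24 CPM, as did Ngp and Ltf near the floor. The defining markers Ly6g, Camp, Ngp, Ltf and Ctsg had 3 counts or fewer in every library. All 9 monocyte and macrophage markers were called higher, beside 36.3% of all genes, from 0.64 for Ly6c2 to 4.09 for Cd68 on the log2 fold change scale, with a summed level of 404 to 585 CPM in sham and 2208 to 5626 CPM in the IZ. The call of Ly6c2 was lost without sham replicate 1, 2 or 6, without IZ replicate 3 or 4 and with DESeq2. The part of either cell type in the calprotectin values was not tested.

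No shift in the balance of these genes could be shown. The log2 ratio of S100a8 to S100a9 was 0.29 ± 0.90 (SD, n = 8) in sham and 0.64 ± 0.40 (SD, n = 9) in the IZ (exact two-sided permutation p = 0.302, adjusted 0.403). The log2 ratio of S100a8 plus S100a9 to the summed neutrophil markers was 0.15 ± 1.57 (SD, n = 8) in sham and -0.11 ± 0.53 (SD, n = 9) in the IZ (exact two-sided permutation p = 0.668, adjusted 0.668). With so few sham counts, both ratios varied widely in that group.

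Of 7 listed receptors that S100A8 and S100A9 are known to use, 6 were tested, 4 were called higher and 2 lower, where 36.3% and 33.1% of all genes were, with a median log2 fold change of 0.76, beside 0.05 over all genes. Cd14, a co-receptor of Toll-like receptor 4, had 9.26 CPM in sham and 55.4 CPM in the IZ (log2 fold change 2.61 ± 0.21, SE), and Tlr4 itself 7.35 and 12.7 CPM (0.80 ± 0.20, SE). Ly96, the MD-2 co-receptor, had a log2 fold change of 1.01 ± 0.36 (SE) and did not pass the filter without IZ replicate 1, 2, 3 or 4. It had at most 10 counts in a sham library and rested on the IZ libraries to pass the filter. The filter thus favoured a higher call for Ly96, which bears on the count and the median given here. Nptn, neuroplastin, was higher by 0.73 ± 0.13 (SE). Cd36, the fatty acid transporter that also binds S100A8/A9 with its arachidonic acid cargo, was lower, at 1176 and 236 CPM (-2.32 ± 0.17, SE), as was Bsg, basigin (-1.47 ± 0.15, SE). Ager reached 24 counts in the IZ and no more than 1 in sham, and did not pass the filter.

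S100a4, known as fibroblast-specific protein 1 and also made by macrophages, had the highest fold change of the 9 genes. It ran from 19.5 to 26.2 CPM in sham, with a median of 21.4, and from 66.0 to 324 CPM in the IZ, with a median of 243. Sham libraries were tightly grouped, and the IZ low of 66.0 CPM was replicate 1, with the others at 196 CPM or more. The means were 21.8 ± 2.20 CPM (SD, n = 8) and 233 ± 76.8 CPM (SD, n = 9), a 10.7-fold difference (log2 fold change 3.42 ± 0.23, SE, edgeR adjusted p = 1.23e-11) that ranked 253 among 12301 genes. S100a4 shares its 3' end with the overlapping gene model Gm42674 on the same strand (100% over 302 bases), which has no row of its own, so reads of the pair cannot be told apart. Myh9, the nonmuscle myosin heavy chain that S100A4 binds, had 96.3 CPM in sham and 324 CPM in the IZ (log2 fold change 1.76 ± 0.13, SE).

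S100a6, or calcyclin, was the most abundant member in the IZ. It ran from 155 to 227 CPM in sham, with a median of 178, and from 387 to 1248 CPM in the IZ, with a median of 1030. The groups did not overlap, and IZ replicate 1 was again lowest, with the others at 890 CPM or more. The log2 fold change was 2.47 ± 0.19 (SE, edgeR adjusted p = 8.04e-11). Of its listed partners, Cacybp, the calcyclin-binding protein, was called lower, at 55.8 CPM in sham and 42.5 CPM in the IZ (log2 fold change -0.40 ± 0.11, SE), and so was Anxa11, annexin A11, at 15.1 and 8.54 CPM (-0.83 ± 0.19, SE). With total counts alone these values turned to 0.68 and 0.26, but relative to the median of all genes they stayed at -0.45 and -0.87. The other listed annexins were not lower: Anxa1 and Anxa2 were called higher (2.69 and 2.74) and Anxa6 was not called (0.21).

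S100a4 and S100a6 had r = 0.914 in the IZ (n = 9, exact permutation p = 0.0276, adjusted 0.0691) and rho = 0.533 (exact permutation p = 0.148, adjusted 0.295). Without IZ replicate 1, r was 0.272 (n = 8, exact permutation, adjusted p = 0.711), so the high value rests on that library. Leaving out replicates 1 and 3 gave 0.313 (n = 7, exact permutation, adjusted p = 0.776). In sham r was 0.231 and rho 0.19 (n = 8, exact permutation, p = 0.575 and 0.665).

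S100a10, which encodes p11, a member that does not depend on calcium and pairs with annexin A2 at the plasma membrane, ran from 64.5 to 100.4 CPM in sham, with a median of 71.1, and from 146 to 304 CPM in the IZ, with a median of 250.0. The groups did not overlap, and the highest sham value was that of replicate 3 and the lowest IZ value that of replicate 1. The log2 fold change was 1.73 ± 0.14 (SE, edgeR adjusted p = 1.92e-10). Anxa2 ran from 298 to 631 CPM in the IZ, with 82.9 CPM on average in sham and 553 ± 101 CPM (SD, n = 9) in the IZ (log2 fold change 2.74 ± 0.15, SE, edgeR adjusted p = 1.13e-12).

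The S100a10 and Anxa2 pair differed in the size of its change, which was tested as a ratio within libraries. The log2 ratio of S100a10 to Anxa2 was -0.17 ± 0.20 (SD, n = 8) in sham and -1.19 ± 0.20 (SD, n = 9) in the IZ, a difference of -1.02. It was lower in all 9 IZ libraries than in any sham library (exact two-sided permutation p = 4.11e-05, the smallest possible, adjusted 8.23e-05). The ratio rests on the same counts as the fold changes above, and how often other gene pairs differ so was not computed. IZ replicate 1, at -1.03, lay within the range of the other IZ libraries, and the difference stayed between -1.06 and -0.96 in all alternatives. Within groups the relation of the pair was not called: r = 0.808 and rho = 0.15 in the IZ (n = 9, exact permutation, adjusted p = 0.113 and 0.787), -0.04 without IZ replicate 1, and 0.551 and 0.12 in sham (n = 8, exact permutation, adjusted p = 0.303 and 0.793).

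**Figure D3:**
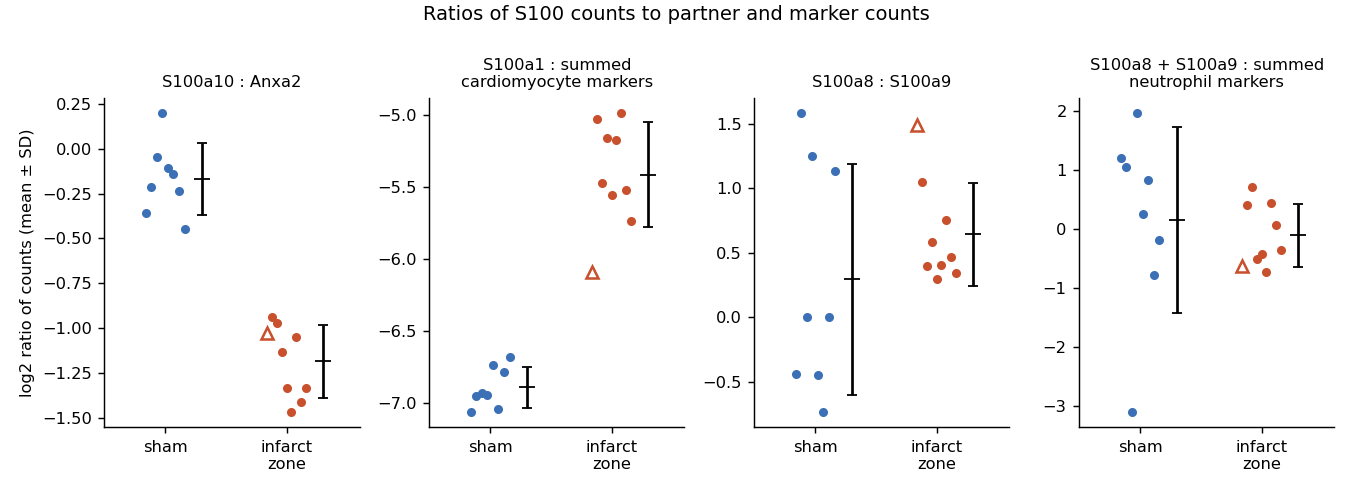
Log2 ratio of counts in each library for S100a10 to Anxa2, S100a1 to the summed cardiomyocyte markers, S100a8 to S100a9, and S100a8 plus S100a9 to the summed neutrophil markers, with the mean ± SD in black and IZ replicate 1 as an open triangle. The groups do not overlap in the first panel (-0.17 and -1.19 on average) and in the second (-6.89 and -5.42), and overlap in the other panels.

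S100a11, or calgizzarin, a partner of annexin A1, ran from 20.1 to 43.7 CPM in sham, with a median of 38.1, and from 159 to 350 CPM in the IZ, with a median of 264. The groups did not overlap, and IZ replicate 1, at 254 CPM, lay inside the range of the other IZ libraries. The log2 fold change was 2.92 ± 0.20 (SE, edgeR adjusted p = 1.78e-11) and 2.90 without IZ replicate 1. The last part of the S100a11 transcript is nearly identical to processed copies elsewhere in the genome, 98.99% over 297 bases for Gm12854, which had up to 280 counts, and 98.65% for Gm7665, so reads could be split among them and the value of S100a11 is uncertain. Anxa1 ran from 71.8 to 207 CPM in the IZ, with 27.5 CPM on average in sham (log2 fold change 2.69 ± 0.18, SE), and its r with S100a11 was 0.162 in the IZ and 0.041 in sham (exact permutation, n = 9 and 8, adjusted p = 0.816 and 0.932), with rho of 0.467 and 0.26.

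S100a13, which takes part in the export of fibroblast growth factor 1, ran from 59.0 to 128 CPM in sham, with a median of 100.1, and from 111 to 205 CPM in the IZ, with a median of 139. The groups overlapped, with 6 of 9 IZ libraries above all sham libraries. The log2 fold change was 0.64 ± 0.16 (SE, edgeR adjusted p = 0.00118). Fgf1, its cargo, was lower in all 9 IZ libraries than in any sham library, a pattern held by 16.5% of all genes. It had 113 CPM in sham and 20.3 CPM in the IZ (log2 fold change -2.51 ± 0.30, SE, or -3.05 without IZ replicate 1). Syt1, the synaptotagmin of the same export complex, had at most 1 count in any library.

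S100a16, a widely expressed member, had the smallest change. It ran from 31.9 to 60.2 CPM in sham, with a median of 49.6, and from 42.1 to 84.9 CPM in the IZ, with a median of 71.6. The groups overlapped, with 6 of 9 IZ libraries above all sham libraries, and the log2 fold change was 0.47 ± 0.15 (SE, edgeR adjusted p = 0.00786). A pattern picked after the values were seen was that the same 3 IZ libraries, replicates 6, 7 and 8, held the lowest S100a16 values (42.1, 58.0 and 46.5 CPM), the lowest S100a11 values (159, 160 and 212 CPM) and the highest S100a13 values (191, 174 and 205 CPM).

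**Figure D4:**
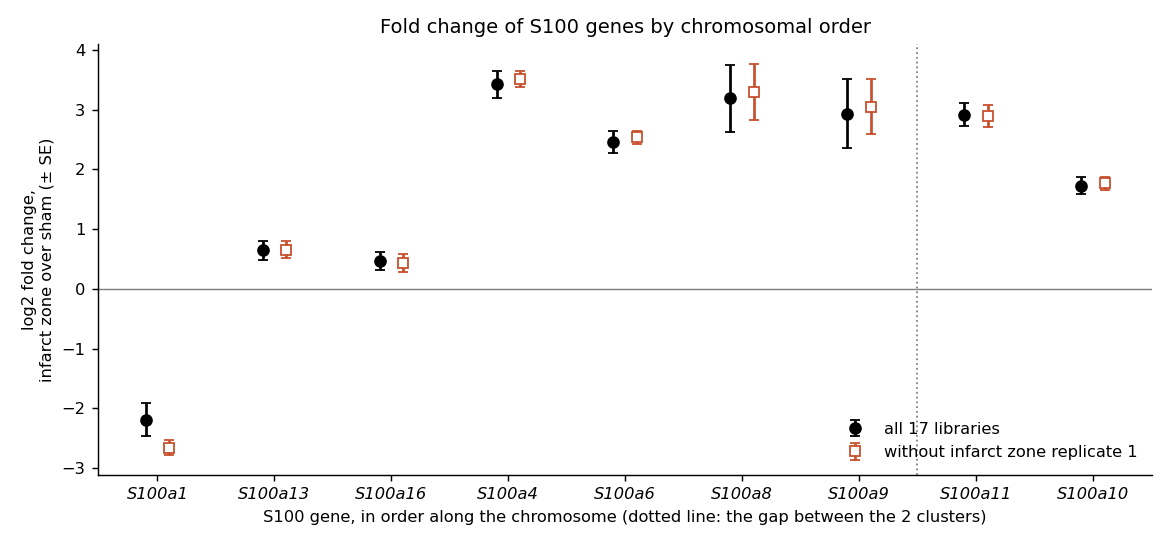
Log2 fold change of each S100 gene, IZ over sham, with its SE, in order along chromosome 3, for all 17 libraries (black) and without IZ replicate 1 (red squares). S100a1 is the only gene below 0, at -2.19 and -2.65, and its neighbour S100a13 lies at 0.64 and 0.66.

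Over the whole list of S100 binding partners, 8 of 9 genes were tested, 3 were called higher (Anxa2, Anxa1 and Myh9) and 3 lower (Fgf1, Anxa11 and Cacybp), which is close to the shares of 36.3% and 33.1% over all genes. The others, Anxa6 and Ahnak, had log2 fold changes of 0.21 and -0.01 (edgeR adjusted p = 0.221 and 0.922). The remaining S100 genes with a row were low. S100b, the member known from glia, had 5.17 CPM in sham and 6.73 CPM in the IZ (log2 fold change 0.38 ± 0.30, SE, edgeR adjusted p = 0.272), S100a3 and S100a14 had 3 counts or fewer in every library, and S100a7a and S100g had at most 5 and 4 counts.

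As counts of 3' tags need no division by transcript length, the 9 genes could be set against each other within a library. Their sum was 0.0816 ± 0.0107% of the library in sham (SD, n = 8), against 0.310 ± 0.0648% for the IZ (SD, n = 9). The sham libraries ran from 0.0703 to 0.106% and the IZ libraries from 0.161%, in replicate 1, to 0.371%. These percentages are of total counts, a scale on which the median log2 fold change of all genes was 1.13, so the typical gene rose too. With TMM the rise was smaller: the sum had a median of 1183 CPM in sham (1103 to 1450) and 2196 CPM in the IZ (1532 to 2454). The S100a1 share of this sum was 61.7 ± 4.41% in sham (SD, n = 8) and 5.54 ± 1.58% in the IZ without replicate 1 (SD, n = 8), where replicate 1 had 32.3%. S100a6 took the first place in the IZ with 44.8 ± 8.17% (SD, n = 9), from 14.8 ± 2.04% in sham (SD, n = 8). S100a4 went from 1.82 to 10.5% on average, S100a11 from 2.92 to 12.4% and S100a10 from 6.15 to 11.2%, while S100a13 held 7.97 and 7.03%. S100a8 and S100a9 stayed at 3.85 and 2.43% or less in every library. These shares sum to a whole, so a fall in 1 raises the others.

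**Figure D5:**
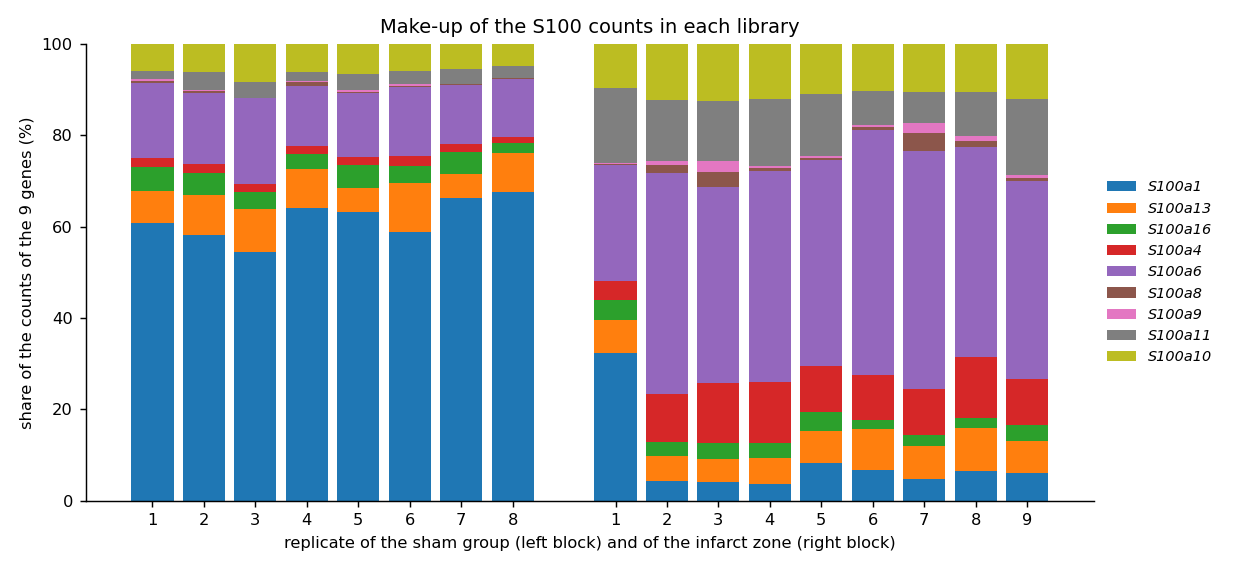
Share of each gene in the summed counts of the 9 S100 genes, in percent, one bar per library, with sham replicates on the left and IZ replicates on the right. S100a1 (blue) takes 54.5 to 67.7% of each sham bar and 3.70 to 8.21% of the IZ bars other than replicate 1, where S100a6 (purple) takes 43.0 to 53.5%.

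To see how the members varied among the mice beyond the group difference, the deviations of log2 CPM from the group means were correlated over the 17 libraries, as a description only. S100a4 and S100a6 had r = 0.863, S100a6 and S100a10 0.823, and S100a1 and S100a4 -0.93. Without IZ replicate 1, over the other 16 libraries, the same values were 0.240, 0.562 and -0.62. S100a13 and S100a16 went against each other with r = -0.72, and -0.75 without that library. Values over libraries share depth and scaling.

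The genes most like each member by this measure, among 9306 genes averaging 10 CPM or more, were for S100a1 Ivns1abp (r = 0.983), Ogdh, a mitochondrial dehydrogenase subunit (0.978), and Chchd10 (0.976), which stayed at 0.891 to 0.915 without IZ replicate 1. For S100a4 they were Cstb, cystatin B (0.908), Ctsb, cathepsin B (0.894), and Nme1 (0.893), which dropped to 0.459, 0.356 and 0.577 without it. For S100a6 they were Fbln2, fibulin 2 (0.921), Rpn2 (0.907) and Sec61b (0.906), with 0.872, 0.609 and 0.618 without it. S100a10 was closest to Serp1 (0.894), Pla2g7 (0.875) and Actg1 (0.846), with 0.766, 0.811 and 0.652 without it. S100a13 was closest to Dpagt1 (0.938), Fau, which encodes a ribosomal protein (0.918), and Gm8292 (0.905).

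For S100a8 the genes were Eftud2 (0.840), Hnrnpm (0.822) and Hnrnpa1 (0.816), for S100a9 Mcm2 (0.841), Cdc16 (0.841) and Gcnt2 (0.826), for S100a11 Gm9457 (0.851), Sppl2a (0.849) and Sh3gl1 (0.822), and for S100a16 Rab11a (0.852), Cic (0.844) and Sra1 (0.831). All these r values are over 17 libraries, and those of S100a8 and S100a9 include sham libraries with 1 to 15 counts. With CPM from total counts, 1 of the 3 genes was kept for each of S100a4, S100a6, S100a8 and S100a10, and with a prior count of 5, 1 of 3 for S100a8.

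Markers of other cell types moved as well. The shares below stand beside 36.3% of all genes called higher and 33.1% called lower. Of 8 fibroblast markers 7 were called higher, led by Col1a1 (349 CPM in sham and 5588 CPM in the IZ), with a summed level of 1527 to 2953 CPM in sham and 12565 to 20499 CPM in the IZ, while Dcn was not called (0.04 ± 0.15, SE, below 0 without sham replicate 1, sham replicate 8 or IZ replicate 1). All 7 cardiomyocyte markers were called lower. Of 5 endothelial markers 2 were called lower, 3 without IZ replicate 1, and the others were not called, with Kdr at -1.70 and Pecam1 at -0.16. Pecam1 turned to 0.91 with total counts alone, but relative to the median of all genes it was -0.21 with TMM and -0.22 with total counts. Of 4 mural markers 1 was called higher (Pdgfrb, 0.96) and 3 lower (Kcnj8 lowest, -1.80). No lymphocyte or adipocyte marker passed the filter, and of the skeletal muscle markers Tnnt3, with at most 3 counts in a sham library, passed the filter only through the IZ, which fixed the direction of its call (0.472 and 4.75 CPM on average), Tnni2 was not (1.02, edgeR adjusted p = 0.0530, but called without sham replicate 4 or IZ replicate 1, 5 or 7) and Myh4 had no count in any library. The part of these cell types in the S100 values was not tested.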

How the data were processed

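MACE libraries of 17 mouse hearts were analysed, 8 sham and 9 IZ, grouped by the deposited labels. RNA was isolated with DNase treatment, per the labels, and the authors trimmed reads with Cutadapt, mapped them to mm10 and counted them per gene with HTSeq, and Bowtie2, bcl2fastq and DESeq2 stand in the submitters' processing notes. The deposited values are raw counts, from UMI-deduplicated reads, not normalized. Neither the annotation release nor how multi-mapped reads were treated was given in the sources used here. Of 31647 features, 35 were merged groups of overlapping genes, kept in library sizes and in the test, and 31521 matched GENCODE M21. Chi-square per degree of freedom between libraries was 2.56 to 281 over 136 pairs, so none was deposited in duplicate.

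The test was that of edgeR 4.0.16 under R 4.3.3 (filterByExpr with a minimum of 10 counts, TMM factors 0.616 to 1.53, two-sided quasi-likelihood F-test, no covariate, Benjamini-Hochberg over 12301 genes, threshold 0.05). SE values were derived from the F statistic. CPM used TMM-scaled library sizes and log2 CPM a prior count of 1. Log2 ratios of counts used a pseudocount of 0.5. A gene with 3 counts or fewer was treated as at the floor. Total counts of 1237675 to 4738307 set the precision, and floors cover counting error only. Ratios were compared by exact permutation of 24310 splits and relations by exact permutation of all pairings, computed where both measures had a median of at least 10 counts (10 of 12 relations). Each procedure was tested on simulated data.

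The members and gene lists were chosen with earlier results of these data known. Named genes were the 9 members, other S100 genes with a row, Anxa1, Anxa2, Ager, Tlr4, the highest and lowest log2 fold change of each list and the 3 genes most like each member. Other partners, receptors and targets of these lists are named to account for all their members and were chosen after their values were seen. Some other markers are named as well, also chosen after their values were seen. Listed genes without a row (Elane, Itgam, S100a5, S100a7l2 and S100z) were not analysed here. For 1 named gene no value is given here. Near-identical transcripts were sought with BLAST 2.17.0.

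Animals of the groups share replicate numbers but not identity. Deviations of same-numbered libraries correlated at -0.216 to 0.128, above 0.1 in 1 of 8 pairs, so the numbers were not taken to pair the samples. Alternatives were DESeq2 size factors, upper quartile and total count scaling, the DESeq2 1.42.0 Wald test, other filters, the replicate block, libraries thinned to the lowest depth, the table without mitochondrially encoded features, omission of each library, other pseudocounts and prior counts, and medians in place of means. Adding the counts of near-identical pseudogenes to S100a11, and leaving IZ replicate 1 out of the relations, were chosen after seeing the data. Python 3.11.15 with NumPy 2.4.6, pandas 2.3.3, SciPy 1.17.1 and Matplotlib 3.10.9 was used.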

Additional observations from a re-analysis of the deposited data

Results flagged for a closer look

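Of 32 groups of values tested, 8 held a library whose gap to the nearest other library was large for its group (Dixon's 95% critical value), where chance alone flags about 1 in 20. IZ replicate 1 was the library in 5 of them. It had the highest S100a1 of the IZ, 495 CPM against 82.6 to 162 in the others. It had the lowest S100a4, 66.0 CPM against 196 to 324, and the lowest S100a6, 387 CPM against 890 to 1248. Its annexins were lowest too, with Anxa1 at 71.8 CPM against 158 to 207 and Anxa2 at 298 CPM against 527 to 631. Sham replicate 3 was highest in S100a6, 227 CPM against 155 to 188, and in S100a10, 100.4 CPM against 64.5 to 72.4. Sham replicate 8 was highest in S100a1, 981 CPM against 660 to 787.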

How the results depend on the processing

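Every S100 member tested kept its direction and its call in all alternatives of the fit across genes, 231 values in all. Where a filter on low counts was applied, it favoured that direction for S100a8 and S100a9. The number of members called was 9, or 8 where S100a9 did not pass the filter (a minimum mean of 50 counts, and without IZ replicate 2, 3 or 4). Leaving out each library gave 7962 to 8614 called genes over the whole table and 8 to 9 members. A minimum mean of 50 counts gave 5239 called genes among 6734 tested, and total counts alone gave 10710, of which 85.7% were higher, against 52.3% with TMM. Under that scaling the median of all genes moved from 0.05 to 1.13 and Pecam1 from -0.16 to 0.91 on the log2 fold change scale, so relative to the median Pecam1 stayed at -0.21 and -0.22. With the pseudogene counts added, S100a11 had a log2 fold change of 2.95. Dcn, which was not called, ran from -0.0517 (without IZ replicate 1) to 0.106 (without IZ replicate 4) and also turned to -0.0228 without sham replicate 1 and -0.00313 without sham replicate 8.

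The replicate numbers do not pair the animals: 1 of 8 sham libraries correlated best with the IZ library of its own number. With the replicate block 8078 genes were called, and the 9 members among them.

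All 80 alternatives of the 4 ratios kept direction and call. Of the relations within groups, total count CPM gave r = 0.913 for S100a10 and Anxa2 in the IZ, 0.945 for S100a4 and S100a6 in the IZ and 0.764 for S100a1 and the cardiomyocyte markers in sham, each then past the threshold (exact permutation, adjusted p = 0.0392, 0.0347 and 0.0347). Without the pair of libraries farthest from the median, S100a10 and Anxa2 turned to -0.50 in sham and -0.15 in the IZ, and S100a1 with the cardiomyocyte markers in the IZ was no longer past the threshold at r = 0.827. Without IZ replicate 1, S100a10 and Anxa2 in the IZ turned to -0.0438. The causes of these shifts were not tested. The low sham counts of S100a8 and S100a9 limit the precision of their fold changes and ratios.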
